A study of Mus musculus with 6 samples.

Results

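The endothelial cells of the uterus of control mice were examined here, 341 cells that carried the authors' label Endothelial among 12253 cells with a cell type in the corn oil (CO) single-cell library. They made up 2.78% of these cells (exact 95% binomial interval 2.5 to 3.09%), and the other 11912 labelled CO cells were the cells they were set against. The CO library held 32387 cells with counts in all, and the 2 single-cell libraries together held 48699 cells. Of the CO cells, 20134 carried no cell type or had not passed the authors' quality flag. Below, such cells are called cells with no cell type.

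The mice were CD-1 females injected under the skin on neonatal days 1 to 5 with corn oil or with diethylstilbestrol (DES, 1 mg/kg/day), a synthetic estrogen, and their uteri were taken at 12 months of age. CO mice were in estrus when tissue was taken. Horns from 2 CO uteri went into 1 trypsin-dissociated pool and horns from 4 DES uteri into another, with 1 library each, so no difference between single-cell pools could be tested and the intervals below cover counting error only. In addition, frozen uterine sections from 2 CO and 2 DES mice, 1 section each, were measured in spots that can hold several cells. A pathologist first checked tissue for epithelium in both groups and for uterine adenocarcinoma in DES. Blocks were then selected and cored, so the sections are chosen regions and not whole uteri. A CO section was noted to have a tissue fold, and spot clusters were less distinct in a DES section. As numbered below, the fold lay in CO section 2 and the less distinct clusters in DES section 2.

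Endothelial cells had a median of 6309 unique molecular identifiers (UMIs, each a counted RNA molecule) per cell, from 2224 to 28938, and a median of 2504 genes, against a median of 10775 UMIs over all labelled CO cells. Their pool held 2629117 UMIs, and a gene's level is given below as its UMIs scaled to 1000000 UMIs of the pool (CPM). The CO and DES libraries shared 180 cell barcodes, and 2 of them belonged to CO endothelial cells. Because the authors assigned cell types from these same counts, differences between endothelial and other cells are descriptions and not tests.

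Endothelial cells line blood and lymphatic vessels. They sense vascular endothelial growth factor (VEGF) made by neighbouring cells, hold together through cadherin and claudin junctions, and take on arterial, capillary, venous or lymphatic programs along the vessel tree. In the cycling uterus the vessels regrow and regress with the ovarian hormones, and lymphatic vessels drain the wall.

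Promoter sequences of 5 endothelial genes are shown first, because the letters AGGAAG, the core that ETS transcription factors such as Erg and Fli1 bind, were frequent at the starts of the genes that marked these cells. The windows come from RefSeq on GRCm38.p6, run from 250 bases before to 50 bases after the annotated start, and are written 5′ to 3′ on the strand of the gene with AGGAAG or its reverse complement in capitals.
Egfl7, chr2:26580833-26581132, plus strand: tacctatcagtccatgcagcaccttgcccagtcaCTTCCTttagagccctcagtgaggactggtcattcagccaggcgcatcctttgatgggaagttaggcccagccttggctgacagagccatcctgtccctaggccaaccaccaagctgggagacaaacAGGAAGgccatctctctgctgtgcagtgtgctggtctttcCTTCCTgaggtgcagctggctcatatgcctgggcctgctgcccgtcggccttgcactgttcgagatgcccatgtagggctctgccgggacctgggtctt
Emcn, chr3:137340828-137341127, plus strand: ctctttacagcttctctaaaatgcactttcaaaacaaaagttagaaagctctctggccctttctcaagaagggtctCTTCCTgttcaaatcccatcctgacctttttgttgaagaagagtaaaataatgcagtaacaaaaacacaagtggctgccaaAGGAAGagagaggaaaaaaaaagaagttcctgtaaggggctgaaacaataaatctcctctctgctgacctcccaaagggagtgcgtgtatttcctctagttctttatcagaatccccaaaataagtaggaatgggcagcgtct
Flt1, chr5:147725962-147726261, minus strand: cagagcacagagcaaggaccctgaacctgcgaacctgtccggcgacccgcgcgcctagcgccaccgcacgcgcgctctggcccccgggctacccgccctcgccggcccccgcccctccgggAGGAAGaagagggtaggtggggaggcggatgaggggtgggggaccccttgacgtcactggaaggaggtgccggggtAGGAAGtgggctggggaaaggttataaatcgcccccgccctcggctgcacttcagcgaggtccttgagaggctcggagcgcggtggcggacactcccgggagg
Tie1, chr4:118489800-118490099, minus strand: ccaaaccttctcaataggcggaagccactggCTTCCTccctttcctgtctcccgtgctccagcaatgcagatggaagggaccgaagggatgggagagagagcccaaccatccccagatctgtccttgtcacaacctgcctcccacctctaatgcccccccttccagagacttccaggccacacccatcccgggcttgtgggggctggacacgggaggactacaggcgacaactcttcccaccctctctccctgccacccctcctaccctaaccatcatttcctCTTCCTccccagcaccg
Kdr, chr5:75978406-75978705, minus strand: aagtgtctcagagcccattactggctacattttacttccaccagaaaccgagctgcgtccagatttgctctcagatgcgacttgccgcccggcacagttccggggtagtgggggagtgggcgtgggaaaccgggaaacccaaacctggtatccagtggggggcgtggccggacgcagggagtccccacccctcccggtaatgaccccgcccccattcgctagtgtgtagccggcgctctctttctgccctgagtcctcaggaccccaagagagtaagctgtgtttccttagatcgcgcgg

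Among the 50 genes with the largest ratio of endothelial to other labelled CO cells, 34 had a RefSeq window and gave 40 windows of 300 bases. AGGAAG, searched on both strands, lay in 28 of these 40 windows, or 70% (exact binomial interval 53.5 to 83.4%), and in 35.4% of all 32851 windows. Windows of the same gene are not independent. By gene, 26 of the 34 held it in a window, or 76.5%, against 38.4% of all genes. The forkhead letters TGTTTAC lay in 2.5% of the 40 windows and 3.65% of all windows. For the SOX letters AACAATG the shares were 2.5% and 3.78%. For the letters AGATAAG, which bind proteins of the Gata2 family, they were 5% and 3.04%. For the KLF letters CCACACCC they were 2.5% and 3.56%. These shares of the 40 windows rest on 2 windows for AGATAAG (interval 0.611 to 16.9%) and on 1 for each of the others (0.0633 to 13.2%). Counts so small cannot tell a raised or lowered share from that of all windows. None of the searched letter strings contains another. Egfl7 had 3 windows, and the one shown above held 3 copies of AGGAAG while the others held 2 and 0. The windows of Emcn, Flt1 and Tie1 held 2 each, and that of Kdr held none. A match is a string of letters, and binding was not measured.

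The 6 genes that mark the cell type were all higher in the endothelial pool than in the other labelled CO cells, by at least 63.9 times, as the label would have it. Pecam1 (chr11:106654217-106750628, minus strand, mm10), a junctional adhesion molecule, stood at 890.4 CPM (95% Poisson interval 854.7 to 927.2) against 2.36 CPM in the other cells, a ratio of 376.9. Cd93 (chr2:148436640-148443563, minus strand), a C-type lectin-like receptor of vessel walls, stood at 1129.7 CPM, a ratio of 438.2. Egfl7 (chr2:26580014-26593120, plus strand), a secreted matrix protein of endothelium, stood at 1652.6 CPM, a ratio of 359.0. The remaining markers were the sialomucin Emcn and the VEGF receptors Flt1 and Kdr. Emcn (chr3:137341067-137432185, plus strand) stood at 854.3 CPM, 500.9 times the level in other cells. Flt1 (chr5:147561604-147726011, minus strand) stood at 684.3 CPM, a ratio of 162.0. Kdr (chr5:75932827-75978458, minus strand) stood at 655.0 CPM, a ratio of 63.9. All 6 genes are protein coding, and the positions are those of the whole gene.

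Per endothelial cell the markers were seen as few molecules. Pecam1 was counted 0 to 37 times in a cell with a median of 5, Egfl7 0 to 48 times with a median of 10, and Kdr 0 to 38 times with a median of 3. Since depth differed between types, each cell was also thinned at random to 3000 UMIs, which kept 322 of the 341 endothelial cells. Of these, 94.7% still held Egfl7, 89.8% Emcn, 89.1% Pecam1, 87% Cd93, 76.4% Kdr and 71.7% Flt1. Without thinning the shares were 97.4%, 94.4%, 97.1%, 89.7%, 89.4% and 83.3%. At least 3 of the 6 markers were held by 338 of 341 cells before thinning and by 316 of 322 after it, and 235 of 341 cells held all 6.

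Outside the endothelial cells the markers were low but not all were equally restricted. Cd93 stood at 168.8 CPM in myeloid cells, Emcn at 133.3 CPM and Flt1 at 39.7 CPM in pericytes, Pecam1 at 30.7 CPM in lymphocytes and Kdr at 42.5 CPM in the 22 cells labelled Stmn1-hi. Egfl7 was the tightest of the 6, with 14.2 CPM in pericytes as its next highest level. At matched depth Pecam1 was seen in a like, low share of cells that should lack it, 0.566% of mesothelial, 0.614% of stromal and 0.625% of epithelial cells. The 16.1% of lymphocytes and 32.8% of myeloid cells with Cd93, and the 36.5% of pericytes with Emcn, lay above the shares of those genes in epithelial cells, 0.39% each.

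**Figure D1:**
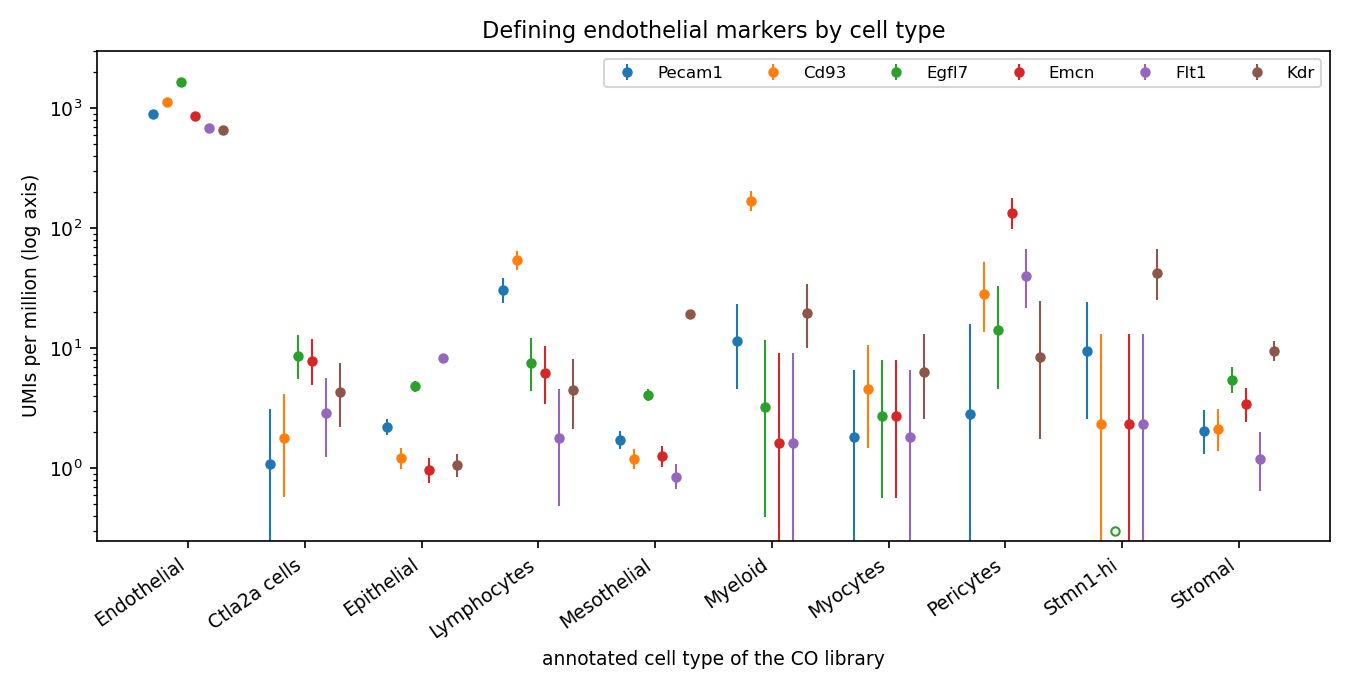
Levels of the 6 endothelial markers in each labelled CO cell type, in CPM on a log axis, with exact 95% Poisson intervals that may run past the lower edge. Endothelial cells sit between 655.0 and 1652.6 CPM for the 6 genes, and the next highest level of any marker is Cd93 in myeloid cells at 168.8 CPM.

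Across all genes, 7406 reached 20 CPM in the endothelial pool or the pool of other labelled cells. Of these, 614 (8.29%) were at least 4-fold higher in endothelial cells and 630 (8.51%) at least 4-fold lower, and the median ratio was 1.08. The endothelial level was the highest of the 10 labelled CO types for 1663 genes (22.5%). These shares are the background against which the gene groups below are read. Mesothelial and epithelial cells made up 56% and 21.1% of the labelled CO cells. They held 83100966 and 78801159 of the 181165253 UMIs of the comparison pool, and so weighed most in it. With the other types weighted equally the counts were 500 and 647, and the marker ratios were 126.7 for Pecam1, 38.5 for Cd93, 293.5 for Egfl7, 48.1 for Emcn, 101.8 for Flt1 and 51 for Kdr.

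The genes with the largest ratios, among those at 100 CPM or more, were headed by Fam167b with 281.8 CPM against 0.221 CPM in the other cells, a ratio of 1276.5. Cyyr1 followed with a ratio of 998.2, then Ptprb, a phosphatase that acts on the receptor Tie2, at 929.8 and Adgrl4, an adhesion G protein-coupled receptor, at 885.3. Gpihbp1, which carries lipoprotein lipase to the capillary lumen, had a ratio of 810.2. The rest of the 25 were RP23-381H23.2, Myct1, Robo4, Aplnr, Sox18, Ushbp1, Ccl21a, Mmrn1, Cd300lg, Emcn, She, Arhgef15, Tie1, Grrp1, Cd93, Cldn5, Fgd5, Pecam1, Egfl7 and Tek, whose ratios ran from 745.5 down to 351.5. With the other types weighted equally, the ratios of the 25 ran from 38.4 for Ccl21a to 2979.0 for RP23-381H23.2, and that of Fam167b was 341.7. Ccl21a and Mmrn1 rested on 27 lymphatic-like cells described below, without which their ratios were 0.35 and 2.77.

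**Figure D2:**
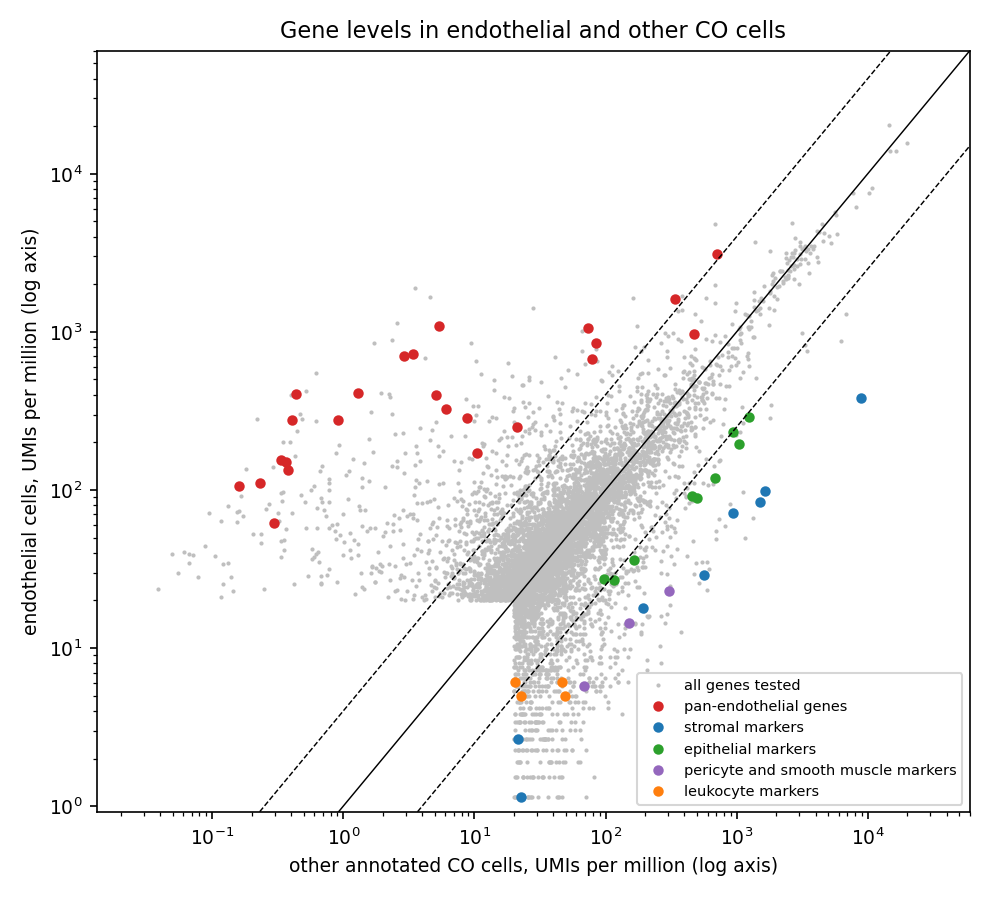
Level of each gene in the pooled endothelial cells against the pooled other labelled CO cells, in CPM on log axes. Of 7406 genes above the 20 CPM limit, 614 lie at least 4-fold above and 630 at least 4-fold below equality, and the endothelial level runs up the vertical axis.

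The most abundant transcripts were mostly not particular to vessels. Leaving out mitochondrial and ribosomal protein genes, they were Malat1 (20418.3 CPM, ratio 1.4), Tpt1, Tmsb4x, Eef1a1, Sparc, Igfbp7, Ifitm3, Actb, RP23-81C12.3 and Ctla2a. Igfbp7, a secreted protein of vessel walls, was the most skewed at 4805.4 CPM and a ratio of 7.02. Ctla2a, a cathepsin inhibitor-like protein, stood at 3110.2 CPM in endothelial cells and at 36929.8 CPM in the cells the authors named for it, where the 6 markers summed to 26.5 CPM against 5866.2 CPM in endothelial cells.

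Of 25 genes listed as general to endothelium, 24 passed the limit and 23 of them were at least 4-fold higher, with a median ratio of 204.7. Their highest level was in endothelial cells for 22 of the 24. Ctla2a, which is on the list at a ratio of 4.41, was far higher in the cells named for it, at 36929.8 CPM. Cdh5, the cadherin of endothelial junctions, stood at 702.1 CPM (ratio 243.2) and Plvap, which forms the diaphragms of fenestrae and caveolae, at 721.2 CPM (ratio 210.4). Cd34 was less restricted, with 855.4 CPM in endothelial and 381.7 CPM in stromal cells. The gene that was not 4-fold higher was Cav1, the coat protein of caveolae, at 968.0 CPM in endothelial and 980.5 CPM in mesothelial cells. Ramp2, which pairs with the adrenomedullin receptor Calcrl, stood at 1054.0 CPM but was close behind in stromal cells at 878.0 CPM.

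In the VEGF axis, all 5 receptors and co-receptors were at least 4-fold higher in endothelial cells, with Flt1 and Kdr as above, the lymphatic receptor Flt4 at 78.7 CPM (ratio 594.3), Nrp1 at 373.5 CPM (ratio 43.2) and Nrp2 at 167.0 CPM (ratio 6.4). Nrp1 was higher still in pericytes, at 703.5 CPM. The ligand Vegfa, by contrast, stood at 3.42 CPM in endothelial and 97.7 CPM in stromal cells, a level too low in both pools to pass the limit. Vegfc stood at 3.8 CPM in endothelial and 41.9 CPM in mesothelial cells, and Vegfb at 21.3 CPM, a ratio of 1.8.

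The angiopoietin receptors followed the same pattern. Tek, which encodes Tie2, stood at 133.9 CPM and the orphan receptor Tie1 at 155.2 CPM, with ratios of 351.5 and 460.9. The ligand Angpt2 stood at 23.6 CPM (ratio 16.4), and no UMI of Angpt1 was counted in endothelial cells, which allows up to 1.14 CPM. The apelin receptor Aplnr stood at 301.2 CPM with a ratio of 649.7, and its ligand Apln at 14.8 CPM.

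Of 9 Notch pathway genes above the limit, 5 were at least 4-fold higher, with a median ratio of 9.36. The ligands Dll4 (104.2 CPM, ratio 29.8) and Jag2 (74.2 CPM, ratio 104.2), the receptors Notch1 (165.5 CPM, ratio 9.36) and Notch4 (59.7 CPM, ratio 73.1), and the target Hey1 (40.3 CPM, ratio 21.9) made up the 5. Notch3, the receptor of mural cells, was at 1.14 CPM in endothelial cells and 226.9 CPM in pericytes.

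In the BMP and TGF-beta pathway, 4 of 11 genes were at least 4-fold higher and 1 at least 4-fold lower, with a median ratio of 2.63. The co-receptor Eng (400.5 CPM, ratio 79.1), the receptor Acvrl1 (206.9 CPM, ratio 13.5), the transducer Smad1 (513.9 CPM, ratio 11.3) and the target Id3 (784.3 CPM, ratio 9.22) were higher. The ligand Bmp4 stood at 15.2 CPM, 0.169 times the level in other cells. Of 7 Wnt pathway genes, 5 were at least 4-fold higher and 1 at least 4-fold lower. Those higher included the receptor Fzd4 (82.2 CPM, ratio 6.29), its partner Tspan12 (70.4 CPM, ratio 22) and the factor Lef1 (70.4 CPM, ratio 70).

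Of 22 transcription factors of endothelium, 15 were at least 4-fold higher and none lower, and 17 had their highest level in these cells. The list summed to 3987.7 CPM in endothelial cells and to 2113.4 CPM in pericytes. The ETS factor Erg stood at 71.5 CPM (ratio 762.0), Fli1 at 239.2 CPM (ratio 50.2) and Ets1 at 339.7 CPM (ratio 34.8). Sox18 stood at 201.2 CPM (ratio 578.6), Tal1 at 38 CPM (ratio 362.7) and Meox1 at 63.1 CPM (ratio 408.5). Factors shared with other cells included Gata2 (ratio 1), Klf4 (ratio 0.806) and the venous and stromal factor Nr2f2 (91.7 CPM, ratio 0.965), which stood at 817.0 CPM in pericytes.

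Junction and permeability genes were at least 4-fold higher for 9 of 12, with a median ratio of 31.7. The tight junction protein Cldn5 stood at 150.2 CPM (ratio 412.4, or 86.2 without the 27 lymphatic-like cells), Jam2 at 170.4 CPM (ratio 46.8) and the gap junction protein Gja4 at 132.7 CPM (ratio 198.7), the last also at 173.0 CPM in pericytes. The epithelial junction proteins Ocln (ratio 0.376) and F11r (ratio 1.24) lay on either side of equality. Of 8 leukocyte adhesion genes, 4 were higher, the selectins Selp (92 CPM, ratio 555.9) and Sele (40.7 CPM, ratio 670.3), Icam2 (171.5 CPM, ratio 16.5) and the chemokine Cxcl12 (461.4 CPM, ratio 19.8).

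Of 13 vascular tone genes, 7 were at least 4-fold higher and none lower. They included Nos3, the endothelial nitric oxide synthase (56.3 CPM, ratio 154.5), the angiotensin-converting enzyme Ace (68.1 CPM, ratio 92.7) and Calcrl (248.0 CPM, ratio 64.8). Other genes of the list were higher elsewhere, with Ramp3, another partner of Calcrl, at 24.3 CPM against 1277.9 CPM in stromal cells and the guanylate cyclase subunit Gucy1a3 at 31.9 CPM against 519.1 CPM in pericytes. Among 9 coagulation genes, the anticoagulant receptors Thbd (311.9 CPM, ratio 11.1) and Procr (458.7 CPM, ratio 19.9), Vwf (61.6 CPM, ratio 206.7) and F8 (22.1 CPM, ratio 18.1) were higher, while F3, which starts clotting, was 0.216 times the level in other cells.

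Genes that handle lipid and water were uneven. Gpihbp1 (424.9 CPM) and the lipoprotein receptor Scarb1 (851.2 CPM, ratio 90.7) were high and the water channel Aqp1 stood at 286.4 CPM (ratio 19.5). Lpl, the lipase that Gpihbp1 binds, stood at 16.4 CPM in endothelial cells and 588.1 CPM in Stmn1-hi cells, a ratio to all other cells of 0.0554. The fatty acid carriers Cd36 and Fabp4 stood at 0.761 and 5.71 CPM.

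Basement membrane genes were shared with several types, 5 of 12 being at least 4-fold higher at a median ratio of 2.91. They summed to 7618.1 CPM in endothelial, 7260.5 CPM in stromal, 6447.6 CPM in Stmn1-hi and 5697.3 CPM in mesothelial cells, and to 4218.3 CPM in pericytes. The collagens Col4a1 and Col4a2 stood at 1094.3 and 653.8 CPM, next to 1018.4 and 598.6 CPM in pericytes. Of 12 signals to mural and stromal cells, 3 were higher. These were Pdgfb, the ligand of the pericyte receptor Pdgfrb (127.8 CPM, ratio 43.9), Tgfb1 (123.6 CPM, ratio 9.2) and Kitl, the ligand of Kit (449.6 CPM, ratio 9.08), whereas Rspo3 and Bmp2 were 0.196 and 0.201 times the level in other cells.

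Ovarian steroid receptors were low. Esr1, the estrogen receptor, stood at 32.7 CPM (0.164 times the other cells) and Pgr, the progesterone receptor, at 20.9 CPM (0.289 times). No UMI of Esr2 was counted in endothelial cells. The glucocorticoid receptor Nr3c1 went the other way at 177.2 CPM, 3.14 times the level in other cells.

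Interferon-stimulated genes were higher for 7 of 14, with a median ratio of 3.94. Rsad2, an antiviral enzyme, stood at 219.8 CPM (ratio 33.3), Ifi44 at 238.9 CPM (ratio 8.17) and Isg15 at 142.3 CPM (ratio 4.81). The list's summed level, 1888.8 CPM, was second to that of myeloid cells at 2779.9 CPM. That sum was uneven, with 5171.4 CPM in the Igfbp3 group of 54 cells described below and 740.8 to 1798.9 CPM in the other endothelial groups. MHC class I genes were higher for 2 of 10, with B2m at 1367.4 CPM and a ratio of 3.58, and MHC class II genes were low, Cd74 standing at 20.9 CPM. Immediate early genes, which dissociation can induce, had a median ratio of 1.46 over 18 genes, with 1 at least 4-fold higher and 1 at least 4-fold lower. They summed to 7983.7 CPM, second to myeloid cells at 10517.5 CPM. This sum too was uneven, with 19156.0 CPM in the Selp group of 61 cells and 2164.5 to 10028.7 CPM in the other endothelial groups. Cell cycle genes had a median ratio of 1, and Mki67 stood at 9.89 CPM.

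**Figure D3:**
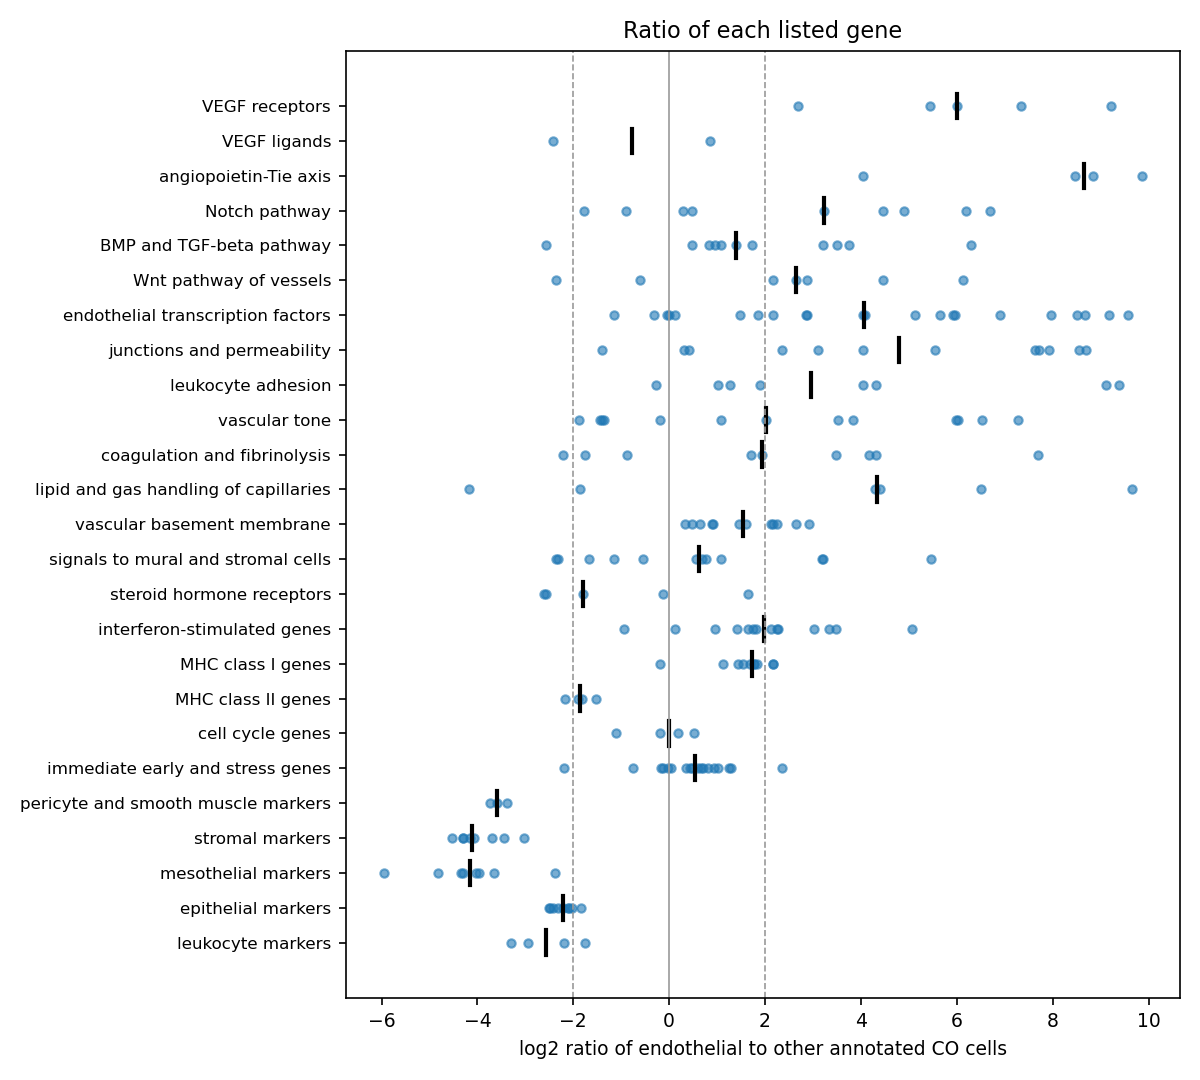
Ratio of the level in endothelial to that in other labelled CO cells for the tested genes of each list, on the log2 scale, 1 point per gene, with the list median as a black bar and 4-fold limits as dashed lines. VEGF receptors have a median ratio of 63.9 and the angiopoietin-Tie axis 406.2, while stromal and mesothelial markers lie below the lower limit at medians of 0.0579 and 0.0562.

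Genes lowest in endothelial cells, among those at 200 CPM or more in the others, peaked mostly in mesothelial cells. Of the 10, 6 had their highest level there (Trdn, Lrrn4, Hpgd, Dcn, Igfbp6 and Slpi), the immunoglobulin genes Jchain and Igkc peaked in lymphocytes, Sfrp2 in Stmn1-hi cells and Cdh11 in the cells labelled Ctla2a. In order of ratio they were Jchain (7.99 CPM, ratio 0.0303), Trdn, Lrrn4, Hpgd, Sfrp2, Cdh11, Igkc, Dcn, Igfbp6 and Slpi (ratio 0.0504). Dcn, a matrix proteoglycan that stood at 17674.8 CPM in mesothelial and 8859.5 CPM in stromal cells, was still counted 1007 times at 383.0 CPM, and 90.9% of endothelial cells held at least 1 of its UMIs. All 8 tested stromal markers and all 8 mesothelial markers were at least 4-fold lower. Pericyte and smooth muscle markers summed to 70.0 CPM against 10490.4 CPM in pericytes, and leukocyte markers to 54.0 CPM against 7246.0 CPM in lymphocytes, with Ptprc at 4.94 CPM and no UMI of Cd3e.

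Epithelial markers were lower by a smaller margin, 8 of 9 at least 4-fold lower at a median ratio of 0.217. Their sum was 1105.3 CPM against 8876.5 CPM in epithelial cells, and the other 8 types held 916.4 to 2752.6 CPM, so endothelial cells lay inside that range. Hemoglobin transcripts were also found in every type, with Hbb-bs at 1345.7 CPM and a ratio of 1.38. At least 3 leukocyte or at least 3 mesothelial markers were held by 20 of the 341 cells (5.87%, exact interval 3.62 to 8.91%), and adding epithelial markers raised the count to 323. The part of free RNA and of mixed droplets in these values was not tested.

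Over 10015 genes, the log2 levels of the endothelial pool correlated with those of the other types at Pearson's r between 0.621 (myeloid) and 0.727 (epithelial), with pericytes at 0.717. Spearman's correlation gave another order, from 0.606 (Stmn1-hi) to 0.697 (pericytes), with epithelial cells at 0.678. All types came from the same library, and genes are not independent points.

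Clustering the 341 cells on 1000 variable genes divided them into 6 groups of 78, 71, 61, 54, 50 and 27 cells. Groups were given a vessel name where at least 4 of their 10 leading genes came from 1 vessel list, a rule set after the values were seen. That gave an arterial-like and a lymphatic-like group, and the other 4 are called by a leading gene. The genes that lead a group also formed it, so their levels describe the groups and test nothing.

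The lymphatic-like group of 27 cells (7.92%, 5.28 to 11.3%) stood furthest apart. Ccl21a, the chemokine that draws dendritic cells into lymph vessels, was counted 4943 times in these cells (23776.3 CPM) and 3 times in the other 314. Mmrn1, a multimerin, was counted 624 times, in 27 of 27 cells, and never in the other endothelial cells. Lyve1, a hyaluronan receptor, stood at 2886.1 CPM and Reln at 1005.3 CPM. The factor Prox1, which sets lymphatic identity, stood at 553.2 CPM against 2.37 to 22.9 CPM in the other groups, Flt4 at 692.7 CPM and Nr2f2 at 490.6 CPM. Cldn5 too was concentrated there, at 1534.4 CPM, with 110.9 CPM in the arterial-like group and 15.8 CPM or less in the rest.

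Several blood-vessel genes were missing from the same 27 cells. No UMI of Cd93, Flt1, Nrp1 or Aplnr was counted, although the other 5 groups held Cd93 at 1147.7 to 1281.4 CPM and Flt1 at 588.5 to 1108.2 CPM. Pecam1 remained at 596.5 CPM, Kdr at 606.1 CPM and Egfl7 at 1505.6 CPM. Sparc stood at 134.7 CPM against 3976.9 CPM or more elsewhere, and the basement membrane list at 1962.5 CPM against 5820.5 to 12755.9 CPM. The mesothelial list was raised to 601.3 CPM, of which Gpm6a made up 538.7 CPM, and Pdpn stood at 202.0 CPM. The cell cycle list was highest in this group, at 716.7 CPM against 212.6 to 438.7 CPM.

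The arterial-like group of 50 cells was led by Gja4 (453.8 CPM against 59.8 CPM in the other endothelial cells), followed in order by RP24-337D17.1, Sema3g, Prss29, Cxcl12, Scin, Fbln5 and Rbp7. Of these, Gja4, Sema3g, Cxcl12 and Fbln5 were on the arterial list, and Prss29, a protease of uterine glands, was counted in 9 of the 50 cells. Fbln5, the fourth of the arterial genes, was counted in 11 of the 50 and stood higher in the lymphatic-like group, at 163.5 CPM against 106.8 CPM. The arterial gap junction gene Gja5 was seen in no other group and stood at 28.7 CPM here. Sox17, an arterial factor, was at 632.5 CPM against 9.62 to 334.1 CPM in the other groups. The arterial list summed to 3417.1 CPM against 909.1 to 1444.6 CPM, and Cxcl12 made up 1209.5 CPM of it. Hey1, Efnb2, Jag1 and Edn1 of that list were also highest here. Dll4, Stmn2, Unc5b and Bmx were not. Dll4 stood at 119.1 CPM against 191.9 CPM in the Igfbp3 group. Stmn2 stood at 43.1 and Unc5b at 41.1 CPM, against 331.9 and 115.4 CPM in the lymphatic-like group. The pericyte and smooth muscle list was also highest here, at 131.4 CPM against 33.6 to 81.8 CPM, but 36 of its 64 UMIs there were Rgs5 in 1 cell.

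The Selp group of 61 cells combined venous adhesion genes with immediate early genes. Selp stood at 379.7 CPM against 12.6 CPM in the other endothelial cells (ratio 30.1), Sele at 147.7 CPM (ratio 13.2) and Icam1 at 595.9 CPM (ratio 10.9). Tmem252 stood at 935.2 CPM and Ackr1, the chemokine scavenger of venules, at 45.7 CPM. Vcam1, at 152.9 CPM, was also highest here, and Vwf stood at 82.6 CPM next to 77.8 CPM in the Olfm1 group. Other genes of the venous list were higher in the lymphatic-like group. Nr2f2 stood at 86.1 CPM against 490.6 CPM there, Ephb4 at 51 against 125.1 CPM and Lrg1 at 196.9 against 538.7 CPM. The venous list summed to 2673.8 CPM, against 377.0 to 1241.0 CPM in the other groups, while the immediate early list summed to 19156.0 CPM against 2164.5 to 10028.7 CPM. Fos alone stood at 2642.1 CPM. The part of dissociation in this group was not tested. When immediate early, mitochondrial and ribosomal protein genes were left out of the clustering, 55 of its 61 cells still fell in 1 group of 64 cells.

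The Igfbp3 group of 54 cells was led by Igfbp3, a binding protein of insulin-like growth factors (2408.2 CPM, ratio 17.8), and by the interferon-stimulated genes Ifit3b, Ifit2, Ifit3, Zbp1 and Irf7. Interferon-stimulated genes summed to 5171.4 CPM, against 740.8 to 1798.9 CPM in the other groups, and MHC class I genes to 7457.3 CPM against 2328.1 to 4961.4 CPM. The tip and angiogenic list summed to 1096.2 CPM, against 258.2 to 614.2 CPM in the other groups, but its genes were split. Esm1, a marker of angiogenic tip cells, stood at 271.0 CPM, and it, Trp53i11, Lamb1, Mcam, Cxcr4 and Kcne3 were highest here. Apln, Angpt2, Pgf, Nid2, Adm and Plaur were higher in other groups. Apln stood at 21.6 CPM against 66.4 CPM in the Gpihbp1 group, and Angpt2 at 19.2 against 134.7 CPM in the lymphatic-like group. Plvap, at 1393.6 CPM, and the basement membrane list, at 12755.9 CPM, were also highest here.

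The Gpihbp1 group of 71 cells had the highest capillary list, 2608.4 CPM against 452.1 to 1679.0 CPM. Gpihbp1, the gene that named the group, made up 1071.8 CPM of this sum, against 301.3 CPM in the other endothelial cells (ratio 3.56). The apoptosis and cell cycle regulator Rgcc, at 533.5 CPM, and Aplnr, Cd300lg and Car4 were also highest here. Sgk1, Lpl, Btnl9, Tcf15, Mfsd2a and Fabp4 of the list were higher in other groups. Sgk1 stood at 163.6 CPM against 428.9 CPM in the Selp group. Cd36 was at 2.37 CPM or less in every group. The next gene by ratio in the Gpihbp1 group was Itih5, at 2.49. In the Olfm1 group of 78 cells the largest ratio to the other endothelial cells, among genes at 100 CPM or more, was 3.66, for Olfm1 itself, which was counted in 6 of the 78 cells and in 35 of the other 263. Its leading genes included Prap1 and Krt18 of epithelium and Igkc of plasma cells, and its epithelial, leukocyte and MHC class II lists, at 1602.2, 144.3 and 203.1 CPM, were the highest of the 6 groups. Among the 78 cells, Ptprc stood at 22.8 CPM and Cd74 at 87.3 CPM.

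**Figure D4:**
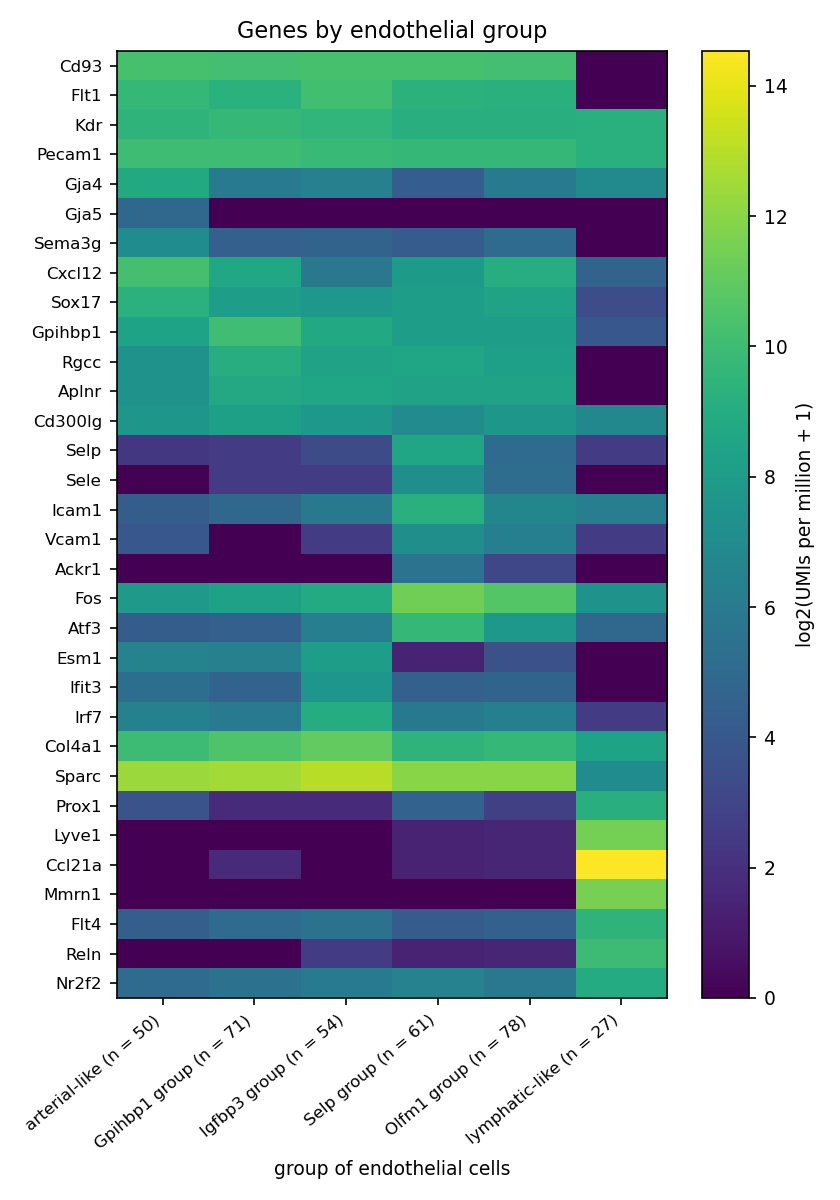
Levels of selected genes in the 6 groups of CO endothelial cells, as log2(CPM + 1) by colour, with genes down and groups across. Ccl21a, Lyve1 and Prox1 are highest in the lymphatic-like group of 27 cells, where Cd93 and Flt1 are at 0, and Gja4 is highest in the arterial-like group of 50 cells.

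Division into groups depended on the setting except for the clearest ones. All 27 lymphatic-like cells stayed together, and alone, at a lower and a higher resolution, with more variable genes and with the stress genes left out. Of the 50 arterial-like cells, 50 stayed together at the lower resolution and 41 at the higher. With more variable genes 43 did, and with the stress genes left out 38 did. The Olfm1 and Gpihbp1 groups merged at the lower resolution of 0.3, which gave 5 groups, and a resolution of 1 gave 8. With immediate early, mitochondrial and ribosomal protein genes left out, 43 of the 78 Olfm1 cells and 64 of the 71 Gpihbp1 cells also fell into a shared group of 123 cells.

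Cells with endothelial markers also lay outside the labelled cells. In both libraries, cells with no cell type include any that did not pass the authors' quality flag, whatever their label. Of the 20134 CO cells with no cell type, 355 held at least 3 of the 6 markers (1.76%, exact interval 1.59 to 1.95%), against 51 of the 11912 CO cells of other types (0.428%). Their median depth was 10092 UMIs. Pecam1 stood at 415.5 CPM in them, but Hbb-bs at 47549.6 CPM and Dcn at 4325.2 CPM, levels far above those in labelled endothelial cells.

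The DES library held 5 cells labelled Endothelial among 9701 with a cell type, or 0.0515% (exact interval 0.0167 to 0.12%), against 2.78% in the CO library. No DES cell without a cell type held 3 markers, 0 of 6611, which by the limit of 3 counts allows a share of up to 0.0454% (exact binomial upper bound 0.0558%). These DES cells had a median of 2178 UMIs, against 4137.5 in the CO cells without a type, and fewer UMIs leave fewer markers to be seen. With 1 library per group, this difference has no replicate and cannot be told apart from a difference in how the tissues came apart. The 5 DES cells carried lymphatic genes, with Ccl21a at 36229.9 CPM, Mmrn1 at 1986.2 CPM and Prox1 at 783.0 CPM. Cd93 and Flt1 were counted 1 time each in the 5 cells, and Pecam1 stood at 553.9 CPM. In the 27 CO lymphatic-like cells the same genes stood at 23776.3 CPM (Ccl21a), 3001.5 CPM (Mmrn1), 553.2 CPM (Prox1) and 596.5 CPM (Pecam1), with Cd93 and Flt1 at 0.

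In tissue sections the summed level of the endothelial markers was uneven over the authors' spot clusters. The 2 CO sections held 12506177 UMIs over 1433 spots and 11032957 over 1834, and the 2 DES sections 9117099 over 1575 and 9880021 over 1357. In the first CO section, the 6 markers summed to 40.4 CPM in the authors' spot cluster led by Sprr1a, Serpina1c and Clca1. That sum rested on 189 marker UMIs, and 46.7% of the cluster's spots, with a median of 19495.5 UMIs, held a marker. The sum reached 456.2 CPM in the cluster led by Ccl21a, Mgp and Hba-a1 (292 marker UMIs, Poisson interval 405.4 to 511.6). There 78.3% of spots held a marker. The 457.2 CPM of the cluster led by Igha, Aspg and Lars2 rested on 32 marker UMIs (interval 312.7 to 645.4). Its 71 spots had a median of 981 UMIs, and 32.4% of them held a marker. In the second CO section the sum ran from 52.3 CPM in a cluster led by Fam213a, Kap and Sprr2f to 588.6 CPM in one led by Aspg, Igha and Igkc. In the DES sections the highest sums were 1090.7 CPM in a cluster of 80 spots led by Ighg1, Mmrn1 and Inmt and 1163.2 CPM in a cluster of 44 spots led by Cdh5, Ccl21a and Vwf. The vessel genes Cdh5 and Vwf thus led a small region of DES tissue.

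Whole sections were compared between DES and CO with the UMIs summed per section, 2 against 2. Fewer endothelial cells and less RNA per endothelial cell cannot be told apart in such sums. The choice of region, made for adenocarcinoma in DES only, cannot be told apart from the exposure either. By the quasi-likelihood test of edgeR with Benjamini-Hochberg adjustment, 376 of 14098 genes were higher in DES (2.67%) and 371 lower (2.63%) at an adjusted p under 0.05. Leaving out a section left 1 in its group, assumed to vary like the other group, and the counts then differed widely. Without CO section 1 they were 1311 and 1508, without CO section 2 they were 1148 and 1188, without DES section 1 they were 14 and 0, and without DES section 2 they were 3 and 0.

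Of the 27 genes made up of the 25 largest ratios and the markers, 1 fell, where 371 of all 14098 genes (2.63%) fell. That count is not read as a result about the 27. The gene that fell was Gpihbp1. It stood at 20.7 and 34.4 CPM in the CO sections and at 1.75 and 2.73 CPM in the DES sections, which is -3.80 on the log2 scale with an SE of 0.40 (edgeR quasi-likelihood, adjusted p = 0.0212). Both DES sections lay below both CO sections. The change was -3.51 without DES section 1 (adjusted p = 0.0915) and -4.21 without DES section 2 (adjusted p = 0.0819), and over all alternatives the adjusted p ran from 1.94e-13 to 0.0915.

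None of the 6 markers passed the adjusted threshold in edgeR's quasi-likelihood test, although all 6 had a negative fitted change and an unadjusted p under 0.05. Over all 14098 genes, 7106 had a negative fitted change and 1806 of these an unadjusted p under 0.05. With DESeq2, 1 of the 6 markers passed, and 4 of the 27 genes were lower and 0 higher, against 969 lower and 822 higher over all genes. Pecam1 stood at 26.1 and 42.8 CPM in CO and 16.9 and 18.6 CPM in DES, or -1.16 on the log2 scale with an SE of 0.28 (edgeR, adjusted p = 0.0887). Flt1 stood at 10.2 and 10.6 CPM in CO and 5.81 and 6.48 CPM in DES, while the levels of Egfl7, 56.8 and 107.3 against 57.1 and 48.1 CPM, overlapped between the groups. The 6 markers summed to 140.9 CPM in CO section 1 and 225.0 CPM in CO section 2, the one with the fold. In DES sections 1 and 2 they summed to 109.2 and 110.2 CPM. The part of the fold in these sums was not tested. Over the 27 genes the median log2 change was -0.94, against -0.01 over all genes tested. A negative fitted change was found for 23 of the 27, against 7106 of all 14098 genes. The 27 were picked as genes of 1 cell type and are not independent, so they do not count as separate results.

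Lymphatic genes were mixed. Of the 8 tested, 3 had a negative fitted log2 change and the median was 0.32. Ccl21a stood at 91.2 and 98.2 CPM in the CO sections and 262.4 and 133.4 CPM in the DES sections (log2 change 0.85, adjusted p = 0.205 by edgeR), and Mmrn1 at 4.72 and 6.53 against 9.65 and 9.21 CPM (log2 change 0.54, adjusted p = 0.314 by edgeR). Lyve1 was at 9.6 and 5.9 CPM in CO and 9.4 and 8.2 CPM in DES (log2 change -0.03), and Sned1 and Scn3b had changes of -0.41 and -0.44. The 1 lymphatic marker of 8 that rose, where 2.67% of all genes rose, was Pdpn. It stood at 6.2 and 15.9 CPM in CO and 83.8 and 94.1 CPM in DES (log2 change 2.82, adjusted p = 0.0401 by edgeR). Pdpn is also found outside lymph vessels. Whether the lymphatic and blood-vessel genes differed in their change was not tested.

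Other lists of vessel genes moved unevenly. Of 24 general endothelial genes, 5 fell and 1 rose, where 2.63% of all genes fell and 2.67% rose. The 5 were Cd34 (log2 change -2.94), Cav1, Ecscr, Icam2 and Ly6c1, and Ramp2 rose (log2 change 1.46). Among basement membrane genes, 5 of 13 fell, with Col4a1 at -2.74 and Col4a2 at -2.42 on the log2 scale, and 7 of 14 interferon-stimulated genes fell, with Rsad2 at -3.36. In the Notch list Dll4 fell (-2.14) while Jag2, Hes1 and Notch3 rose. Many of these genes are made by other cells too, and their markers moved as well. Pericyte and smooth muscle markers summed to 10101.6 and 11834.4 CPM in CO and 3065.0 and 3438.7 CPM in DES, with 7 of 11 falling. Stromal markers summed to 6308.0 and 7902.5 CPM in CO and 4392.1 and 2854.0 CPM in DES, with 3 of 10 falling. Leukocyte markers summed to 413.4 and 750.0 CPM in CO and 2332.6 and 1386.5 CPM in DES, and their part in the vessel values was not tested.

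**Figure D5:**
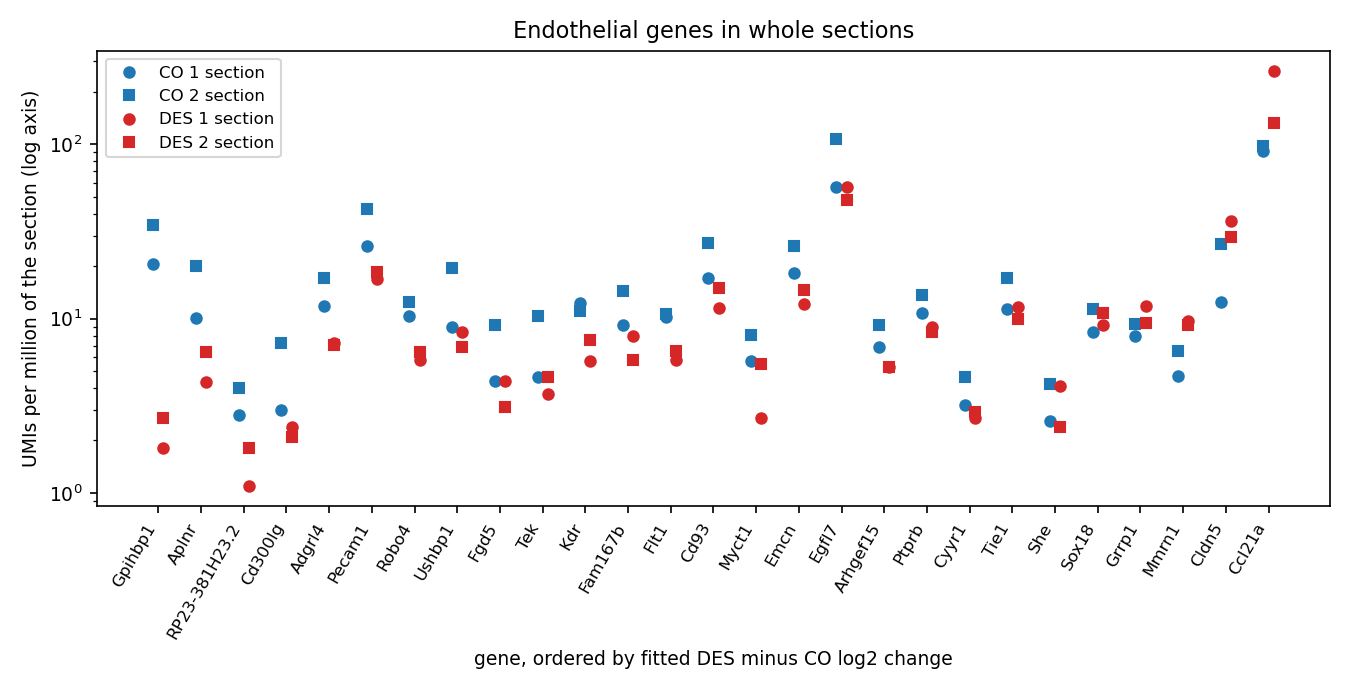
Levels of 27 endothelial genes in the 2 CO and 2 DES sections, in CPM on a log axis, 1 point per section, ordered by fitted change. Gpihbp1 is at 20.7 and 34.4 CPM in CO and 1.75 and 2.73 CPM in DES, and Pecam1 is lower in both DES sections than in both CO sections.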

How the data were processed

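Single-cell and spot UMI counts were used as deposited. The submitters' processing notes name bcl2fastq 2.20.0.422, Cell Ranger 3.0.1, Space Ranger 1.2.2 and the mm10 build. The authors made the counts per gene with Cell Ranger (single cells) and Space Ranger (sections), identified swapped barcodes, removed doublets and assigned cell types, and no further doublet step was taken. A saturation fraction per cell in the deposited cell table was not used. Endothelial cells were the CO cells labelled Endothelial that passed the authors' quality flag and had counts. Of 350 listed cells with no library or counts, 17 were endothelial and were left out. The members and gene lists were chosen with earlier results of these data known.

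Counts were summed over cells and divided by the pool total (CPM), with exact Poisson intervals for levels and Clopper-Pearson intervals for shares at 95%. A pool with fewer than 3 UMIs of a gene was set to 3 in ratios. Genes were compared for a 4-fold ratio where either pool reached 20 CPM. Named genes were all listed genes, the 25 largest ratios at 100 CPM or more, the 10 most abundant, the 10 smallest ratios at 200 CPM or more in other cells, and 8 per group. UMI counts from 3′ ends carry no length term. Cells were clustered with scanpy 1.11.5 and leidenalg 0.10.2 (1000 variable genes, 15 components, 15 neighbours, resolution 0.5). Sections were fitted with edgeR 4.0.16 (quasi-likelihood, TMM), with DESeq2 1.42.0 as an alternative, each section being 1 mouse. Scripts were tested on simulated data. A listed gene is not reported here.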

Additional observations from a re-analysis of the deposited data

How the results depend on the processing

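Over all CO cells, with or without a type, the endothelial share was 1.05%. Ratio counts of 614 higher and 630 lower genes became 4959 and 1254 with no limit on level, and 323 genes were lower with a limit of 50 CPM. Leaving out the 323 cells with at least 3 epithelial, leukocyte or mesothelial markers left 18 cells and gave 1032 and 138, and the cause was not tested. Named genes were picked by these same ratios or as markers, and settings that only changed the level limit could not move a ratio. Among named genes, with those settings counted in, 241 of 243 ratios stayed at least 4-fold higher and 90 of 90 lower. The exceptions, 0.35 for Ccl21a and 2.77 for Mmrn1, came without the lymphatic-like cells, which was chosen after seeing the data, as was leaving out the 20 cells with at least 3 leukocyte or mesothelial markers of 1 list. With cells thinned to 5000 UMIs the share of endothelial cells with at least 3 markers was 100%. CO cells without a type that held at least 2 markers numbered 602.

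For sections, DESeq2 gave 822 higher and 969 lower genes, and leaving out 1 section, with the lone section of that group assumed to vary like the other group, gave 3 to 1311 higher and 0 to 1508 lower. With the section number as a replicate block the fit gave 298 higher and 229 lower. Same-numbered sections deviated together with a correlation of -0.031, so they shared only a number. Leaving out 1 section turned the sign of Grrp1 (-0.04 to 0.20), She (-0.64 to 0.10, also 0.03) and Sox18 (-0.36 to 0.03). None of these was past the threshold, and the cause was not tested. Depth limits the single-cell values, since 3 UMIs in the endothelial pool are 1.14 CPM.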
